A study of Mus musculus with 32 samples.

Results

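The EGR family genes Egr1, Egr2 and Egr3, their corepressors Nab1 and Nab2, the immediate-early response genes Ier2, Ier3 and Ier5, and the transcription factor genes Srf and Myc were described in LPS-stimulated macrophages with and without Nur77. These 10 genes were chosen by name, out of 25067 genes with a symbol in the table, and all 10 were among the 11186 genes tested. Bone marrow-derived macrophages (BMDMs) were grown from male C57Bl6/J mice of 6 to 12 weeks in L929-conditioned medium. BMDM-WT came from wild-type littermates and BMDM-Nur77-KO from mice in which Nr4a1, the gene of Nur77, had been deleted in the whole body by crossing loxP-flanked Nr4a1 with CMV-Cre, the knockout then being bred without the Cre. Both genotypes were left untreated (0 h) or received 100 ng/ml LPS, a bacterial cell wall component, for 1, 5 or 18 h. Each of the 8 groups had 4 libraries, 32 in all, from cells seeded in replicate, and the number of animals behind them is not stated, so p-values measure the spread between these libraries, which may be technical.

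Immediate-early genes are switched on within minutes of a stimulus without new protein synthesis, and most of them are switched off again soon afterwards. In macrophages, LPS reaches them through Toll-like receptor 4 and the MAP kinase ERK. ERK acts on ternary complex factors that sit beside serum response factor (SRF) on CArG boxes, while NF-κB acts on other members. EGR1, EGR2 and EGR3 are zinc finger factors that bind the same GC-rich site, and NAB1 and NAB2 bind EGR proteins and repress their targets, so that the NAB genes close a feedback loop. Nur77 is itself an immediate-early gene product, which binds the NBRE.

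Promoter sequence was available in the reference table for 6 of the 10 genes (RefSeq, GRCm38.p6). The windows ran from 250 bases before to 50 bases after each transcript start, and they were searched on both strands. The letters searched were GCGNGGGCG for the EGR site, TGACTCA for the AP-1 site, TGACGTCA for the CRE and AAAGGTCA for the NBRE, besides the CArG box and the NF-κB site. Of 32851 windows of this length, 5.55% held the EGR site, 5.2% the AP-1 site, 1.79% the CRE, 1.51% the NBRE, 1.63% a CArG box and 4.51% the NF-κB site. The 150 bases just before a transcript start of 4 genes are shown, 5′ to 3′ on the strand of the gene. They were printed because they hold the sites of the routes named above. For Srf, Egr2 and Nab1, these bases lie within the span of the gene given below. Capitals mark the matches, none of which overlap.
Srf (chr17:46556163-46556312, minus strand): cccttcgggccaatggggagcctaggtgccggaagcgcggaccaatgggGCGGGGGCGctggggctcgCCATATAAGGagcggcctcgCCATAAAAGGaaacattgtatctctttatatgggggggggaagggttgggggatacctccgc
Egr2 (chr10:67537719-67537868, plus strand): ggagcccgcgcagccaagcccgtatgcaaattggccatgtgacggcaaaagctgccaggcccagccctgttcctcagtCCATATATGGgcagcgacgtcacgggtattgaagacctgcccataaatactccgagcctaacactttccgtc
Ier3 (chr17:35821563-35821712, plus strand): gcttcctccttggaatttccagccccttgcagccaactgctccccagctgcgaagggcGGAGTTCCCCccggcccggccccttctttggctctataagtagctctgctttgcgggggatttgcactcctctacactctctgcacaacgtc
Nab1 (chr1:52500449-52500598, minus strand): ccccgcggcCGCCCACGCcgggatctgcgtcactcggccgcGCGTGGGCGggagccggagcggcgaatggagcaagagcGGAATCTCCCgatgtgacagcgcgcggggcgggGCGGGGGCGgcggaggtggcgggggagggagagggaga

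Upstream of Srf, 1 EGR site stood before 2 CArG boxes, CCATATAAGG and CCATAAAAGG. Upstream of Egr2, CCATATATGG is a CArG box, which recurs in overlapping windows of nearby starts. A further Egr2 window held another one, CCTTTTTTGG, and the Egr2 window starting at 67535249 held none of the 6 motifs. Ier3 had a single NF-κB site, GGAGTTCCCC. Nab1 had 3 EGR sites and 1 NF-κB site, GGAATCTCCC. The windows of Nab2 and Ier5 held none of the 6 motifs. No window of the 6 genes held the NBRE, the AP-1 site or the CRE. These matches describe the letters only.

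Totals per library, over the 1 transcript kept for each gene, were 8742362 to 15780926 counts. All 7 macrophage markers were present, with summed levels of 10826 to 18459 CPM (counts scaled to a common library total) in every library. Summed levels of B cell, T cell, fibroblast, dendritic, erythroid and mast cell markers were at most 5.33 CPM. Neutrophil markers summed to 17.9 to 52.2 CPM and were higher in BMDM-Nur77-KO at 1 h (43.4 to 52.2) than in BMDM-WT (28.2 to 37.8). Of these, Ly6g, Elane and Mpo were under 0.5 CPM in every group, and the part of this list in the results was not tested. At 0 h, BMDM-Nur77-KO libraries held less Nr4a1, with 4.46 to 7.03 CPM against 15.5 to 25.8 CPM in BMDM-WT. It still rose to 147 to 243 CPM at 1 h, and the table does not separate deleted from kept exons. BMDM-Nur77-KO replicate 1 at 5 h and replicate 4 at 18 h stood apart from their replicates, with 1710 and 551 genes more than 1 log2 unit away, against 46 to 325 genes in the other libraries, and results that rest on them are given with and without them.

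**Figure D1:**
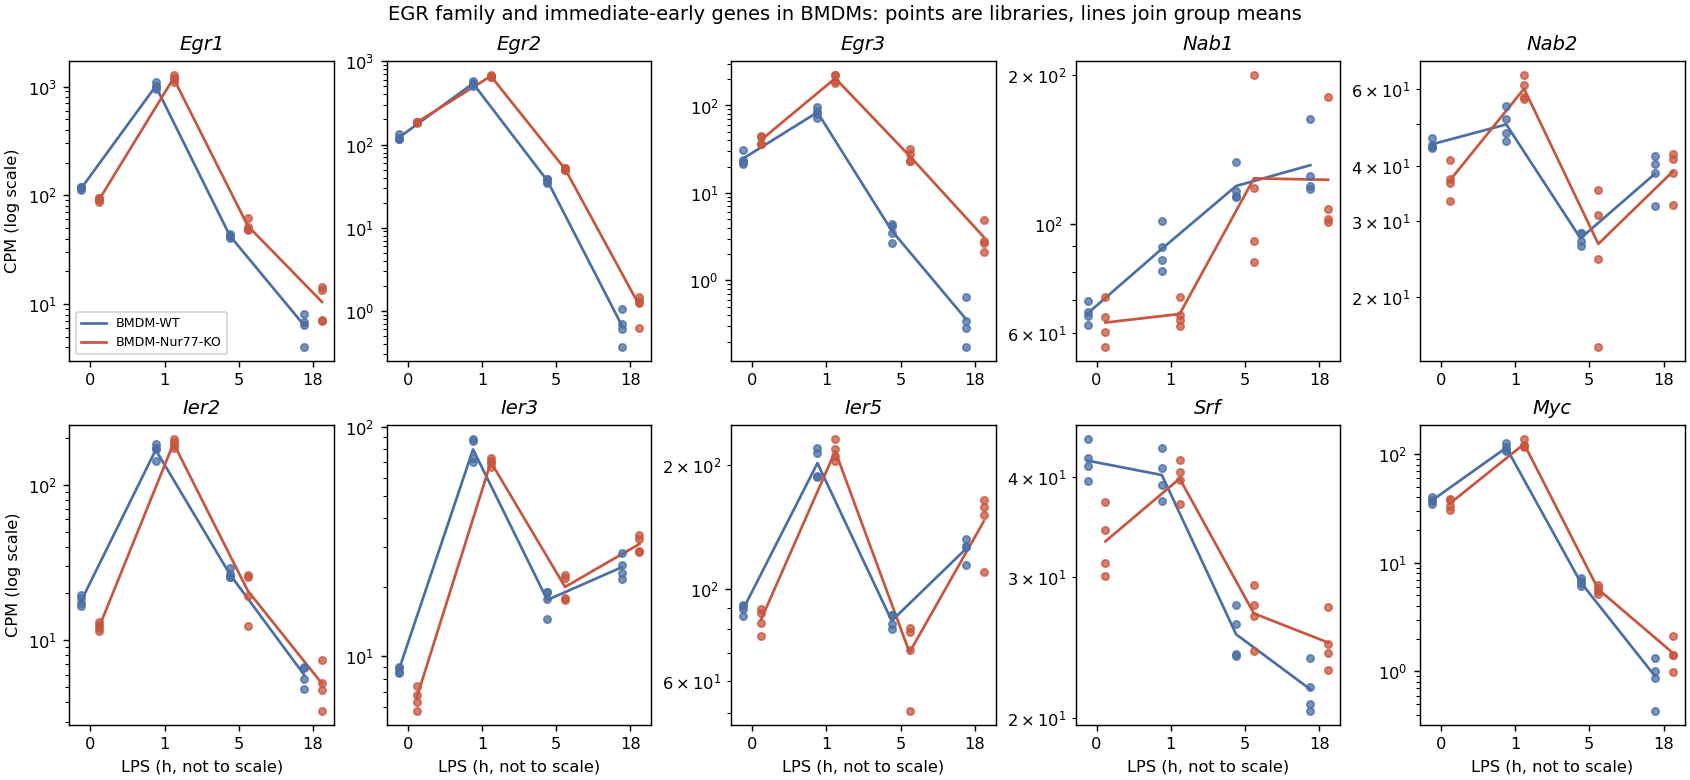
Level of each of the 10 genes in CPM (log scale) at 0, 1, 5 and 18 h of LPS. Points are the 4 libraries of a group and lines join the group means. Egr1, Egr2, Egr3 and Myc peaked at 1 h and fell below their 0 h level by 5 h, and the libraries of both genotypes were furthest apart for Egr3.

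The first question was how the 10 genes respond to LPS. In BMDM-WT, 7 of the 10 rose at 1 h and none fell, where 10.1% of all tested genes rose and 20.3% changed either way. With DESeq2's size factors, 60% rather than 49.9% of all the genes called were higher at 1 h. The genes that rose were Egr1, Egr2, Egr3, Ier2, Ier3, Ier5 and Myc. Nab1, Nab2 and Srf did not pass the test at 1 h, whose threshold is an adjusted p of 0.05 in edgeR's quasi-likelihood test, the adjustment being that of Benjamini and Hochberg over every tested gene. The median log2 fold change of the 10 genes was 1.68, against -0.03 for all tested genes.

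Egr1, on chromosome 18, encodes the founding EGR factor. In BMDM-WT its level rose from 113 to 119.8 CPM at 0 h to 956 to 1089 CPM at 1 h, a log2 fold change of 3.11 (standard error 0.15, edgeR adjusted p = 6.1e-17). By 5 h it stood at 40.8 to 44.1 CPM, and at 18 h at 4.02 to 8.17 CPM. Its groups did not overlap between any of the 4 times. Per transcript length, it was the most abundant of the 10 genes at 1 h, with 332 ± 18.9 RPKM (SD, n = 4; RPKM is CPM per kilobase of transcript), followed by Egr2 with 183 ± 10.8 RPKM and Ier2 with 110 ± 11.7 RPKM, whose ranges did not overlap.

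Egr2 (chromosome 10, 67534469 to 67542188, mm10), which acts in myeloid and Schwann cell differentiation, had 115 to 134 CPM at 0 h and 502 to 579 CPM at 1 h in BMDM-WT. It fell to 34.4 to 38.9 CPM at 5 h and 0.366 to 1.05 CPM at 18 h, where its 4 libraries held 30 counts in all. Egr2 thus showed the deepest late loss of the 10 genes in BMDM-WT, to 0.56% of its 0 h level (log2 fold change -7.47, edgeR adjusted p = 2.0e-27). Egr3 (chromosome 14, 70077317 to 70082613) was the least abundant EGR gene per length at 0 h, with 6.29 ± 1.07 RPKM. It had 21.4 to 30.9 CPM at 0 h, 72.6 to 95.3 CPM at 1 h, 2.68 to 4.42 CPM at 5 h and 0.173 to 0.64 CPM at 18 h. At 5 h, Egr1, Egr2 and Egr3 held 4.21%, 6.79% and 4.44% of their mean 1 h level in BMDM-WT.

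The NAB genes followed other courses. Nab1 (chromosome 1, 52455849 to 52500712) went from 62.4 to 69.6 CPM at 0 h to 113 to 133 CPM at 5 h and 118 to 163 CPM at 18 h in BMDM-WT. Its log2 fold change against 0 h was 0.43 at 1 h (adjusted p = 0.1, but 5.1e-04 in a fit to the compared libraries alone), 0.86 at 5 h (adjusted p = 1.7e-04) and 1.00 at 18 h (adjusted p = 2.6e-05) in edgeR's test. Nab1 was therefore higher at both late times, when the EGR genes were below their 0 h level. Nab2 (chromosome 10, 127660918 to 127666703) had 44.1 to 46.3 CPM at 0 h and 45.6 to 54.8 CPM at 1 h, and dipped to 26.3 to 28.1 CPM at 5 h (log2 fold change -0.72, edgeR adjusted p = 4.0e-05). Nab2 overlaps Stat6 by 40 bases and the antisense gene Gm16229 by 1646 bases. The libraries are strand-specific, but whether the counting used the strand is not stated, so reads of these genes may not be told apart.

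Ier2 and Ier3 had the largest log2 fold changes of the 10 genes at 1 h in BMDM-WT, next to Egr1. Ier2 (chromosome 8, 84661331 to 84662852), a small nuclear protein gene, went from 16.5 to 19.5 CPM to 143 to 184 CPM in BMDM-WT (log2 fold change 3.21, standard error 0.16, edgeR adjusted p = 8.1e-17). Ier3 (chromosome 17, 35821713 to 35822911), which modulates survival and ERK signalling, went from 8.45 to 8.96 CPM to 70.2 to 88.6 CPM (log2 fold change 3.19, standard error 0.11, edgeR adjusted p = 5.2e-21). They parted afterwards. Ier2 fell to 4.87 to 6.73 CPM at 18 h, below its 0 h range, while Ier3 had 14.6 to 19.0 CPM at 5 h and 21.6 to 28.1 CPM at 18 h, above its 0 h range. Ier5 (chromosome 1, 155096367 to 155099636) rose from 85.8 to 91.3 CPM to 187 to 219 CPM at 1 h, returned to 80.1 to 86.4 CPM at 5 h and had 114 to 132 CPM at 18 h, a second rise (log2 fold change against 5 h 0.58, edgeR adjusted p = 2.9e-05).

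Srf did not pass the test at 1 h in BMDM-WT, while Myc rose. Srf (chromosome 17, 46546838 to 46558267) had 39.4 to 44.6 CPM at 0 h and 37.3 to 43.4 CPM at 1 h in BMDM-WT, overlapping ranges, and 20.4 to 23.8 CPM at 18 h. A long noncoding RNA gene on the other strand, Gm26904, overlaps the whole of Srf, with the same limit on strand. Myc (chromosome 15, 61985341 to 61990361), a driver of growth and ribosome synthesis, rose from 34.8 to 40.5 CPM to 107 to 128 CPM at 1 h, then fell to 6.09 to 7.31 CPM at 5 h and 0.431 to 1.33 CPM at 18 h. Its late loss came to a log2 fold change of -5.37 (edgeR adjusted p = 1.9e-22) against 0 h.

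**Figure D2:**
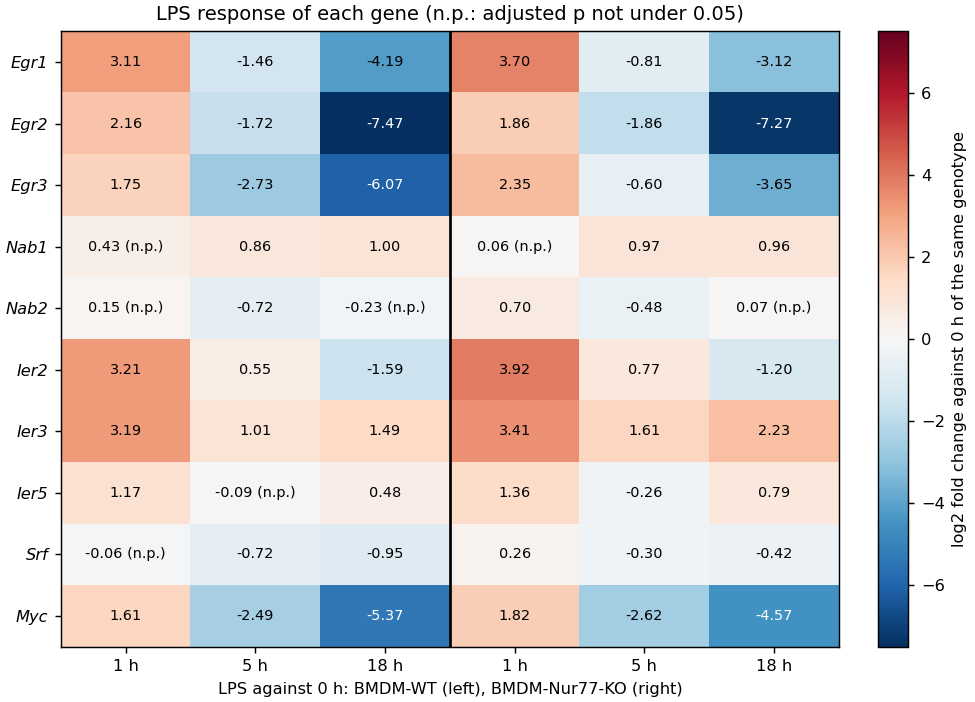
Log2 fold change of each gene at 1, 5 and 18 h of LPS against 0 h of the same genotype, BMDM-WT left of the line and BMDM-Nur77-KO right of it. Egr1 rose by 3.11 in BMDM-WT and 3.70 in BMDM-Nur77-KO at 1 h, and Egr3 was at -6.07 and -3.65 at 18 h.

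At the later times, 3 of the 10 genes were higher and 6 lower than at 0 h in BMDM-WT, both at 5 h and at 18 h, where 70.1% and 66.4% of all tested genes changed. At these times most genes had changed, so the counts say little about the 10 genes in particular. From 1 to 5 h, 9 of the 10 fell and Nab1 rose, against 65.2% of all genes changed. From 5 to 18 h, 3 rose (Nab2, Ier3 and Ier5) and 6 fell, against 69.4%.

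In BMDM-Nur77-KO, 9 of the 10 genes rose at 1 h, where 6.9% of all tested genes rose, the exception being Nab1. Nab2 and Srf were the genes that passed there and not in BMDM-WT. Nab2 went from 33.3 to 41.2 CPM to 56.9 to 64.7 CPM (log2 fold change 0.70, edgeR adjusted p = 2.6e-04). Srf went from 30.1 to 37.2 CPM to 37.0 to 41.9 CPM (log2 fold change 0.26, edgeR adjusted p = 0.025), with ranges that just overlapped, and its adjusted p was 0.052 to 0.12 without replicate 1 or 3 at 0 h or replicate 1, 2 or 4 at 1 h. Whether these responses differ between the genotypes is tested by the interaction, given further on. At 5 h, 3 of the 10 were higher and 7 lower (71.4% of all genes changed), at 18 h 3 were higher and 6 lower (69.5%), from 1 to 5 h 1 rose and 9 fell (70.8%), and from 5 to 18 h 3 rose and 5 fell (69.3%).

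The second question was how loss of Nur77 changes these genes. Egr3 and Egr2 were higher in BMDM-Nur77-KO at all 4 times, and Egr3 by the widest margin, reaching a log2 fold change of 2.83 at 5 h and 3.11 at 18 h. At 0 h, 5 of the 10 genes passed the test, where 12.7% of all tested genes did. Egr2 and Egr3 were higher and Ier2, Ier3 and Srf lower, against 6.33% of all genes higher and 6.34% lower. At 1 h, 2 passed (6.53% of all genes), at 5 h 2 (24.4%), and at 18 h 4, all of them higher (21.7% of all genes, 11.7% higher). At 5 h, the share of these genes called was thus no higher than that of genes in general. The median log2 fold change of the 10 genes was -0.18, 0.13, 0.07 and 0.28 at 0, 1, 5 and 18 h, and that of all tested genes was -0.03, -0.00, 0.02 and -0.01.

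**Figure D3:**
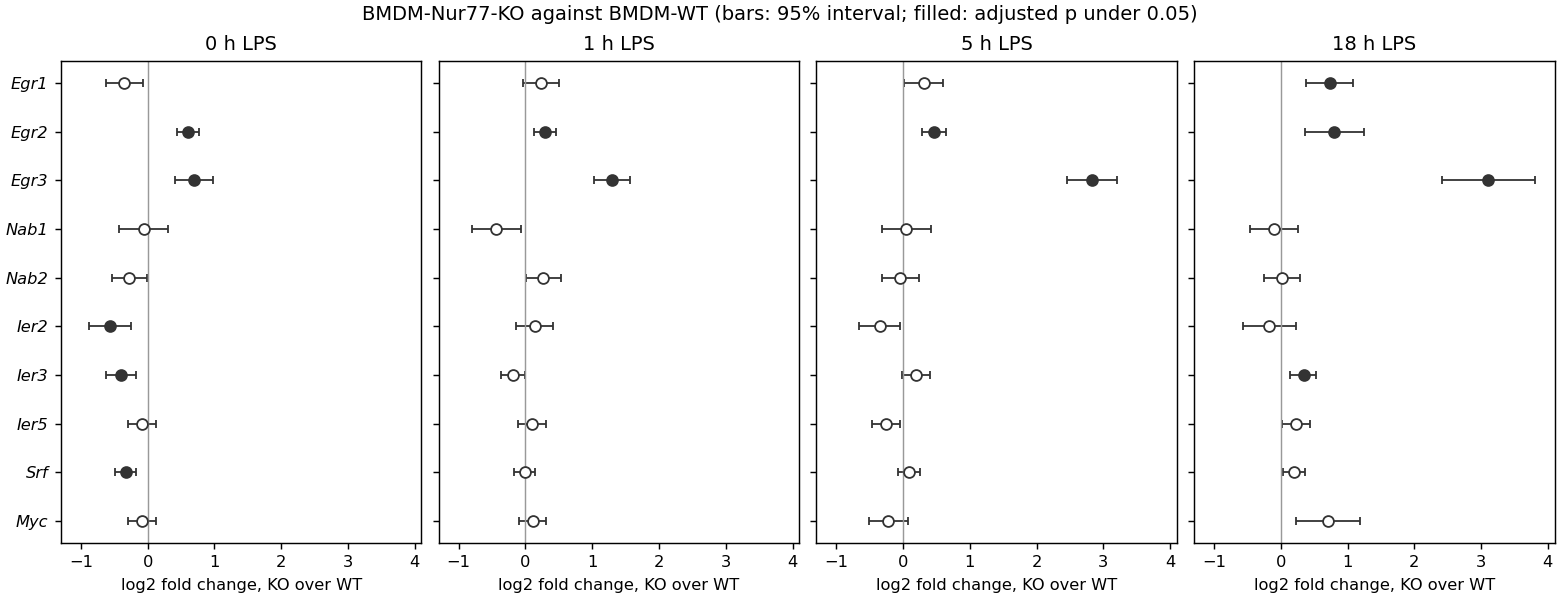
Log2 fold change of BMDM-Nur77-KO over BMDM-WT for the 10 genes at 0, 1, 5 and 18 h of LPS. Bars span an approximate 95% interval, and filled points have an adjusted p under 0.05. At 18 h, the bars of Egr2, Egr3 and Myc are narrower than counting error alone gives. Egr3 moved from 0.70 at 0 h to 3.11 at 18 h, and Egr2 lay between 0.29 and 0.80.

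For Egr3, the libraries of the genotypes did not overlap at any time. At 0 h, BMDM-Nur77-KO replicates 1 to 4 had 43.3, 36.7, 44.6 and 36.6 CPM and those of BMDM-WT 22.7, 30.9, 21.4 and 24.1 CPM, with no overlap (log2 fold change 0.70, standard error 0.15, edgeR adjusted p = 0.0015). At 1 h, the values were 225, 189.8, 222 and 183 CPM against 85.9, 95.3, 72.6 and 80.4 CPM (log2 fold change 1.29, standard error 0.14). At 5 h, they were 32.1, 27.6, 23.5 and 23.0 CPM against 3.51, 2.68, 4.42 and 4.24 CPM (log2 fold change 2.83, standard error 0.19, edgeR adjusted p = 3.8e-12). The 5 h level in BMDM-Nur77-KO, 23.0 to 32.1 CPM, overlapped the range of untreated BMDM-WT. Egr3 kept 13% of its mean 1 h level at 5 h in BMDM-Nur77-KO and 4.44% in BMDM-WT. At 18 h, BMDM-Nur77-KO had 2.68, 2.85, 4.89 and 2.12 CPM and BMDM-WT 0.64, 0.286, 0.348 and 0.173 CPM (log2 fold change 3.11, edgeR adjusted p = 5.7e-08). This last difference rests on 158 counts against 16, a ratio of summed counts per total of 8.97 with an interval of 5.36 to 16.1 that covers counting error only.

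For Egr2, BMDM-Nur77-KO had 187, 184, 185 and 179 CPM at 0 h and BMDM-WT had 118, 134, 115 and 117 CPM, with no overlap (log2 fold change 0.60, standard error 0.09, edgeR adjusted p = 8.0e-06). At 1 h the values were 691, 655, 651 and 666 CPM against 537, 553, 502 and 579 CPM (log2 fold change 0.29, standard error 0.08, edgeR adjusted p = 0.029). The groups again did not overlap, but the adjusted p was 0.051 to 0.12 without any 1 of the 8 libraries other than BMDM-WT replicate 4. At 5 h, Egr2 had 49.6, 51.8, 49.2 and 52.1 CPM against 38.4, 35.7, 34.4 and 38.9 CPM (log2 fold change 0.46, standard error 0.09, edgeR adjusted p = 5.5e-04). At 18 h it had 0.626, 1.25, 1.47 and 1.30 CPM against 0.366, 1.05, 0.608 and 0.69 CPM, overlapping ranges with 58 counts against 30. Counting error alone put the ratio of summed counts per total between 1.11 and 2.83. The log2 fold change was 0.80 (edgeR adjusted p = 0.048). This call was lost without BMDM-Nur77-KO replicate 2, 3 or 4 or BMDM-WT replicate 1, 3 or 4 (adjusted p = 0.076 to 0.21), without both libraries that stand apart (adjusted p = 0.088), without a filter (0.067) and in a fit to the compared libraries alone (0.19).

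Egr1 lay below BMDM-WT at 0 h and above it afterwards, and passed the test at 18 h. At 0 h, BMDM-Nur77-KO had 90.6, 94.6, 94.6 and 87.6 CPM, all below the 113 to 119.8 CPM of BMDM-WT, but the difference did not pass the test (log2 fold change -0.35, standard error 0.14, edgeR adjusted p = 0.11). At 1 h it had 1170, 1205, 1284 and 1105 CPM, all above the 956 to 1089 CPM of BMDM-WT (log2 fold change 0.24, edgeR adjusted p = 0.41). At 5 h it had 49.3, 61.3, 51.3 and 47.8 CPM against 40.8 to 44.1 CPM (log2 fold change 0.31, edgeR adjusted p = 0.12). Values of the genotypes also do not overlap for 22.7%, 19.4% and 19% of all tested genes at these times. At 18 h, Egr1 passed the test, with 6.97, 7.12, 14.5 and 13.4 CPM against 4.02, 6.47, 8.17 and 6.81 CPM (log2 fold change 0.73, standard error 0.18, edgeR adjusted p = 0.0031). There, replicates 3 and 4 of BMDM-Nur77-KO lay above all BMDM-WT libraries and replicates 1 and 2 within their range. In a fit to the compared libraries alone, Egr1 passed at 0 h (adjusted p = 0.0032) and 1 h (0.012) and did not at 18 h (0.13).

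**Figure D4:**
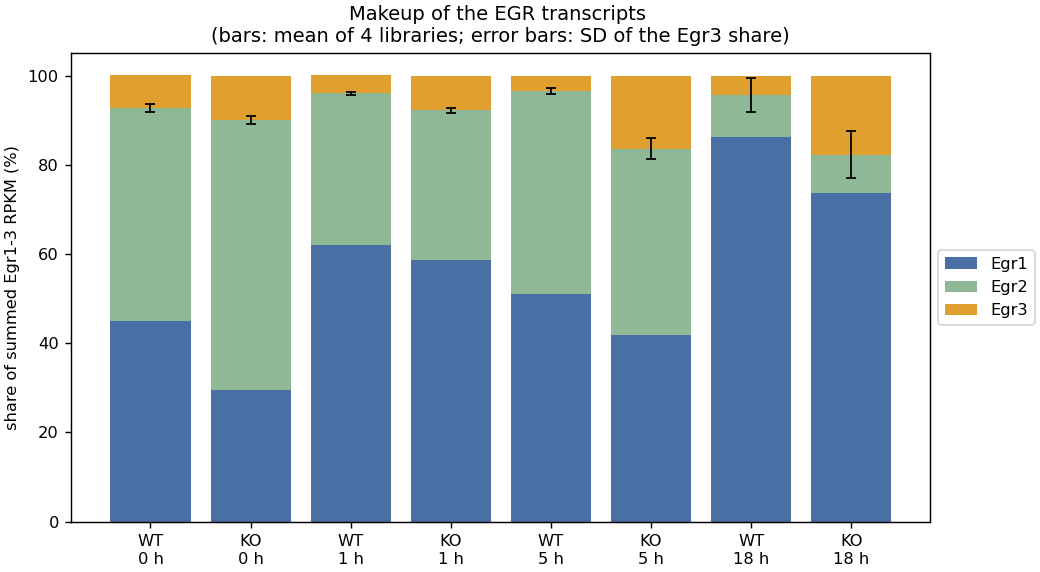
Share of Egr1, Egr2 and Egr3 in their summed RPKM (percent) in each group. Bars are means of 4 libraries and error bars the SD of the Egr3 share. Egr3 made up 3.44% at 5 h in BMDM-WT and 16.4% in BMDM-Nur77-KO.

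The makeup of the EGR transcripts was set out per transcript length, that of the longest matched model of each gene. In these terms, Egr3 made up 7.32% ± 0.877 (SD, n = 4) of the summed EGR level in BMDM-WT and 9.97% ± 0.85 in BMDM-Nur77-KO at 0 h. At 5 h its share was 3.44% ± 0.706 and 16.4% ± 2.3, and at 18 h 4.4% ± 3.83 and 17.8% ± 5.28. Egr1 held 45% ± 1.9 of the EGR level at 0 h in BMDM-WT and 29.5% ± 0.701 in BMDM-Nur77-KO, while Egr2 held 47.7% ± 1.05 and 60.5% ± 0.773. At 1 h, Egr3 made up 3.95% ± 0.336 in BMDM-WT and 7.76% ± 0.592 in BMDM-Nur77-KO, with ranges that did not overlap, while Egr1 held 61.9% ± 1.78 and 58.6% ± 1.72 and Egr2 34.2% ± 1.74 and 33.6% ± 1.73. These shares are a description of the same libraries, with no test.

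Among the IER genes, the lower levels of BMDM-Nur77-KO at 0 h were of Ier2, with 13.2, 11.9, 11.4 and 12.5 CPM against 16.5, 17.4, 18.8 and 19.5 CPM (log2 fold change -0.56, edgeR adjusted p = 0.019), and of Ier3, with 6.76, 6.35, 5.77 and 7.43 CPM against 8.88, 8.45, 8.96 and 8.52 CPM (log2 fold change -0.40, edgeR adjusted p = 0.021). For neither gene did the groups overlap. Ier2 did not pass without BMDM-Nur77-KO replicate 3 or BMDM-WT replicate 3 or 4 (adjusted p = 0.052 to 0.065), nor Ier3 without BMDM-Nur77-KO replicate 2 or 3 or BMDM-WT replicate 3 (adjusted p = 0.054 to 0.093). At 1 h, Ier2, Ier3 and Ier5 overlapped between the genotypes, with log2 fold changes of 0.14, -0.18 and 0.10. At 18 h, Ier3 was higher in BMDM-Nur77-KO, with 32.4, 28.6, 28.5 and 33.7 CPM against 28.1, 21.6, 22.9 and 24.9 CPM (log2 fold change 0.34, edgeR adjusted p = 0.015). Without BMDM-Nur77-KO replicate 4 or BMDM-WT replicate 2, its adjusted p was 0.058 or 0.067, and it was 0.083 in a fit to the compared libraries alone. Ier5 at 18 h had 151, 158, 164 and 109.7 CPM against 127, 126, 114 and 132 CPM, the lowest value being that of the library that stands apart. It did not pass with that library (log2 fold change 0.22, adjusted p = 0.15) and did without it (0.34, adjusted p = 0.015). At 5 h, the libraries of Ier2 and Ier5 overlapped (log2 fold change -0.35 and -0.25, adjusted p = 0.11 and 0.09 in edgeR's test). Both were below the threshold without BMDM-Nur77-KO replicate 3 (0.035 and 0.034) or replicate 4 (0.028 and 0.041). Their lowest values in BMDM-Nur77-KO, 12.4 and 50.6 CPM, were those of replicate 1, which stands apart. Without both libraries that stand apart, the log2 fold changes were -0.17 (edgeR adjusted p = 0.33) and -0.13 (0.24).

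Srf was lower at 0 h in BMDM-Nur77-KO, with 30.1, 34.3, 31.2 and 37.2 CPM against 39.4, 44.6, 42.2 and 41.2 CPM (log2 fold change -0.33, standard error 0.08, edgeR adjusted p = 0.0041), and the groups did not overlap. At 1 h its log2 fold change was -0.01 (95% interval -0.17 to 0.14), and at 18 h it was 0.19 (adjusted p = 0.093). Myc did not pass at any time. Its 18 h values were 1.43, 1.42, 0.979 and 2.12 CPM against 1.01, 1.33, 0.869 and 0.431 CPM. Their log2 fold change of 0.71 was at the threshold. Myc was past the threshold without BMDM-Nur77-KO replicate 3 (edgeR adjusted p = 0.017) or BMDM-WT replicate 2 (adjusted p = 0.02). The adjusted p rose to as much as 0.32 in other fits without 1 library. The highest value, 2.12 CPM, was that of the library that stands apart. Without both libraries that stand apart, the log2 fold change was 0.48 (edgeR adjusted p = 0.28). The 18 h values of Myc rest on 72 counts against 40.

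The corepressor genes were not called at any time in the model of all 8 groups. A fit to the compared libraries alone called Nab2 at 0 h (log2 fold change -0.25, edgeR adjusted p = 0.019) and 1 h (0.27, adjusted p = 0.012) and Nab1 at 1 h (-0.43, adjusted p = 9.3e-04). Nab1 at 1 h was below every BMDM-WT library in BMDM-Nur77-KO, with 63.8, 62.1, 71.2 and 65.5 CPM against 80.2, 89.8, 84.6 and 101 CPM (log2 fold change -0.44, edgeR adjusted p = 0.2). At 5 h its spread in BMDM-Nur77-KO was wide, with 200.3, 118, 92.1 and 83.6 CPM, and at 18 h it had 107, 101, 102 and 181 CPM against 125, 119, 163 and 118 CPM. The highest value was in each case the library that stands apart. Without both, BMDM-Nur77-KO had less Nab1 at 18 h (log2 fold change -0.35, edgeR adjusted p = 0.015). Nab2 at 5 h ranged from 15.4 CPM, in replicate 1, to 35.3 CPM in BMDM-Nur77-KO against 26.3 to 28.1 CPM, with a log2 fold change of -0.04.

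The third question was whether the LPS response itself differs between the genotypes. At 1 h relative to 0 h, the interaction passed for none of the 10 genes in edgeR's test, where 0.0715% of all tested genes passed. At an unadjusted p under 0.05 it was 6 of the 10 (Egr1, Egr2, Egr3, Nab2, Ier2 and Srf) and 11.1% of all genes, and DESeq2 called 1, Egr2 (adjusted p = 0.013). The estimates were 0.59 for Egr1, 0.60 for Egr3 and 0.70 for Ier2 on the log2 scale, each with a standard error of 0.20 or 0.21, and -0.31 for Egr2. A fit to the compared libraries alone called Egr1 (adjusted p = 0.0062), Egr2 (0.044), Nab2 (0.02) and Ier2 (0.014). At 5 h, 3 of the 10 passed (3.12% of all genes), all with a higher response in BMDM-Nur77-KO. Egr3 differed by 2.13 (standard error 0.24, edgeR adjusted p = 1.2e-06), Ier3 by 0.60 (adjusted p = 0.032) and Srf by 0.42 (adjusted p = 0.035). Ier3 and Srf each lost this call in 9 and 8 of the fits without 1 library, with adjusted p up to 0.087 and 0.093, and in a fit to the compared libraries alone (0.12 and 0.17). Egr1 was called in that fit (adjusted p = 0.0091), with DESeq2 (0.017) and without both libraries that stand apart (0.019).

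At 18 h, 4 of the 10 passed the interaction, again all with a higher response in BMDM-Nur77-KO (9.43% of all genes, 5.36% in this direction). Egr3 differed by 2.42 (standard error 0.40, edgeR adjusted p = 9.6e-05), Egr1 by 1.08 (standard error 0.23, adjusted p = 0.0016), Ier3 by 0.74 (standard error 0.15, adjusted p = 0.0014) and Srf by 0.53 (standard error 0.11, adjusted p = 0.0019). Egr3 thus fell by 6.07 on the log2 scale from 0 to 18 h in BMDM-WT and by 3.65 in BMDM-Nur77-KO. Srf fell by 0.95 and by 0.42, from the lower 0 h level in BMDM-Nur77-KO. Without both libraries that stand apart, 7 of the 10 passed, with Nab2 (adjusted p = 0.039), Ier2 (0.043) and Ier5 (0.0016) added, and 2025 rather than 1055 of all 11186 genes passed.

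Other genes of the same routes were read from the same fit, from lists chosen with earlier results of these data known. Of all tested genes, 6.33%, 3.48%, 13.7% and 11.7% had higher levels at 0, 1, 5 and 18 h in BMDM-Nur77-KO and 6.34%, 3.06%, 10.7% and 9.93% lower levels. Without both libraries that stand apart, these shares were 9.36% and 8.44% at 5 h and 13% and 11.5% at 18 h. Beside the 10 genes, 14 of 18 further immediate-early genes were tested. At 1 h of LPS in BMDM-WT, 11 of these 14 rose and 2 fell, against 10.1% and 10.2% of all genes. Gem, a small GTPase, went from 0.495 ± 0.109 to 86 ± 6.34 CPM, Csrnp1 from 5.55 ± 1.17 to 444 ± 37.8 CPM and Maff, a small MAF factor, from 2.44 ± 0.665 to 92.2 ± 8.88 CPM (SD, n = 4). At 18 h, 9 of the 14 were higher in BMDM-Nur77-KO (11.7% of all genes) and none lower, with a median log2 fold change of 0.58. Without both libraries that stand apart, 10 of the 14 were higher (13% of all genes). Among them were Gem (1.78, edgeR adjusted p = 5.8e-07), Maff (1.40, adjusted p = 5.8e-06) and Nfil3, a bZIP repressor (0.93, adjusted p = 5.8e-07). At 0 h 2 were higher and none lower, at 1 h 1 was higher and 1 lower, and at 5 h 4 were higher and 2 lower. Without both libraries that stand apart, 3 were higher and 2 lower at 5 h.

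Of 14 genes described as EGR targets, 8 were higher and none lower in BMDM-Nur77-KO at 18 h, against 11.7% and 9.93% of all genes (median log2 fold change 0.37). Without both libraries that stand apart, 6 were higher (13% of all genes), F3 and Cd44 no longer passing. At 0, 1 and 5 h, 3 were higher each time and 1, 2 and 3 lower, and at 5 h 6 were higher and 2 lower without both. F3, the gene of tissue factor, was higher at all times when every library was kept. It had 2.93 ± 0.443 CPM in BMDM-WT and 8.31 ± 0.648 CPM in BMDM-Nur77-KO at 0 h and 49.1 ± 6.13 and 126 ± 4.61 CPM at 1 h. At 18 h, F3 was near the floor, with 0.112 ± 0.109 and 0.434 ± 0.161 CPM. Fn1, fibronectin, had 35.1 ± 1.76 and 196 ± 5.39 CPM at 0 h (log2 fold change 2.48, edgeR adjusted p = 1.6e-15). Ptgs2, the inducible cyclooxygenase, was lower at 1 h in BMDM-Nur77-KO, with 286 ± 26.7 against 476 ± 73.5 CPM (adjusted p = 0.005), and higher at 18 h, with 771 ± 172 against 99.7 ± 20.9 CPM (log2 fold change 2.95, adjusted p = 1.8e-13).

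**Figure D5:**
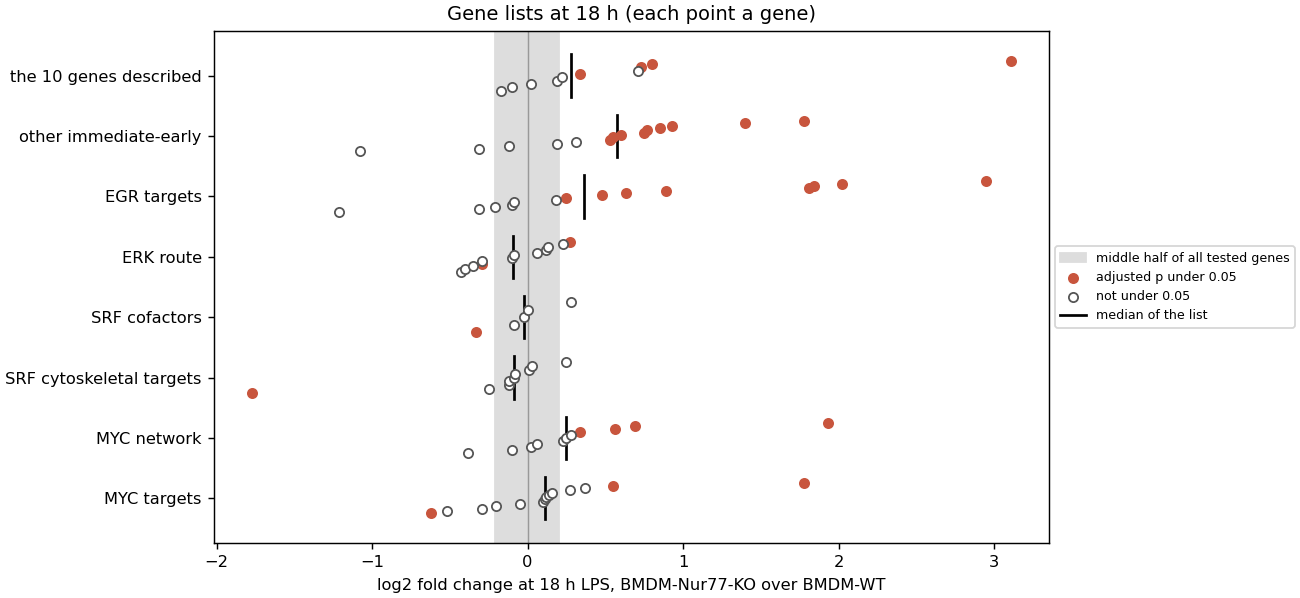
Log2 fold change of BMDM-Nur77-KO over BMDM-WT at 18 h of LPS for the 10 genes and the 7 lists, each point a gene, with the median of each list as a line. The band spans the middle of all tested genes, from the lower to the upper quartile, and the list of further immediate-early genes has a median of 0.58.

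The routes upstream of these genes were read next. Of 5 SRF cofactors, 2 were lower in BMDM-Nur77-KO at 0 h (Elk3 and Mrtfa, the latter with log2 fold change -0.39, edgeR adjusted p = 0.026), none passed at 1 h, Mrtfb was higher at 5 h (0.37, adjusted p = 0.015) and Elk3 lower at 18 h (-0.33, adjusted p = 0.0039). In BMDM-WT at 5 h, Mrtfa and Mrtfb, the actin-regulated cofactors, had fallen by 1.86 and 1.88 on the log2 scale. Of 12 genes of the ERK route, 1, 0, 2 and 2 passed between the genotypes at 0, 1, 5 and 18 h, where 12.7%, 6.53%, 24.4% and 21.7% of all genes did. Without both libraries that stand apart, 1 passed at 5 h (Map2k1) and 5 at 18 h, Map2k1 and Rps6ka4 being higher and Map3k8, Rps6ka1 and Rps6ka5 lower. Map3k8, the kinase that links Toll-like receptor 4 to ERK, rose from 16 ± 2.44 to 36.7 ± 3.63 CPM at 1 h in BMDM-WT (log2 fold change 1.20, edgeR adjusted p = 3.6e-12) and was lower at 18 h in BMDM-Nur77-KO (-0.29, adjusted p = 0.016). Map2k1 was lower at 5 h (-0.37, adjusted p = 0.0022) and higher at 18 h (0.27, adjusted p = 0.017), and Rps6ka3 higher at 0 h (0.54, adjusted p = 0.047). Rps6ka5 rose at 1 h in BMDM-WT (0.48, adjusted p = 0.046).

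Of 9 tested cytoskeletal genes controlled by SRF, none was higher in BMDM-Nur77-KO at any time, and 1, 2, 4 and 1 were lower at 0, 1, 5 and 18 h, against 6.34%, 3.06%, 10.7% and 9.93% of all genes. Tagln2, transgelin 2, was lower at all 4 times, with 552 ± 29.3 CPM in BMDM-WT and 219 ± 68.6 CPM in BMDM-Nur77-KO at 5 h and 161 ± 13.3 and 47.1 ± 7.22 CPM at 18 h (log2 fold change -1.77, edgeR adjusted p = 9.3e-11). Actg1 and Flna, a cytoplasmic actin and filamin A, were lower at 5 h (-0.51, adjusted p = 0.033, and -0.50, adjusted p = 0.0043), and Vcl, vinculin, at 1 h (-0.24, adjusted p = 0.044). Without both libraries that stand apart, 4 and 2 of the 9 were lower at 5 and 18 h.

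Of 11 tested genes of the MYC network, 4 were higher and none lower in BMDM-Nur77-KO at 18 h, against 11.7% and 9.93% of all genes. Mycl had 6.52 ± 0.292 against 1.7 ± 0.719 CPM, Max, the shared partner of the network, 217 ± 60.2 against 135 ± 11 CPM, and Mxd1, a partner of MAX that represses, 331 ± 36.2 against 224 ± 12 CPM. Mxd1 was lower at 0 h (log2 fold change -0.31, edgeR adjusted p = 0.016) and at 5 h (-0.56, adjusted p = 3.6e-06). Mnt, another repressor partner, was higher at 1 and 5 h (0.31, adjusted p = 0.015, and 0.57, adjusted p = 1.2e-04), and Mxd4 fell at 1 h of LPS in BMDM-WT (-0.45, adjusted p = 0.038). Of 14 MYC targets, 12 were lower at 18 h than at 0 h in BMDM-WT, where 34% of all tested genes were lower, and Ccnd2 was higher. Between the genotypes, 2, 1, 5 and 3 of the 14 passed at 0, 1, 5 and 18 h, against 12.7%, 6.53%, 24.4% and 21.7% of all genes, and 3 rather than 5 at 5 h without both libraries that stand apart. Cad, of pyrimidine synthesis, was lower at 0 h in BMDM-Nur77-KO (-0.69, adjusted p = 0.0072), and Odc1, of polyamine synthesis, lower at 1 h (-0.51, adjusted p = 0.0011). At 18 h, Ccnd2, cyclin D2, had 262 ± 16.1 against 76.2 ± 3.83 CPM (1.78, adjusted p = 2.2e-17), and Polr1b was lower (-0.62, adjusted p = 0.0057). Rrs1 rose at 1 h in BMDM-WT (0.84, adjusted p = 2.5e-09).

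The courses of the genes were also set against those of all tested genes, by Pearson correlation of log2 CPM over the 32 libraries, which share groups and are a description only. Among the 10 genes, Egr1 and Myc, and Egr2 and Myc, had r = 0.96, and Nab1 and Srf r = -0.77. Outside them, Egr1 was most like Thap6 and Dusp5 (both r = 0.98), Egr2 like Bcar3 (0.99), Rgs16 and Tsc22d1 (0.98), and Egr3 like Phlda1 (0.96), Cdk17 and Chn2 (0.95). Ier3 was most like Ppp1r15a, Ifnb1 (0.94) and Id2 (0.93), Srf like Hrob, E2f7 (0.94) and Bub1b (0.93), and Myc like Frmd6, Eif4a1 (0.98) and Dusp4 (0.97).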

How the data were processed

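RNA-seq of 32 BMDM libraries was analysed, 4 in each of 8 groups, assigned from the titles and treatments of the labels (the genotype label of the knockouts reads cre). The authors aligned the reads to mm10 with HISAT2 2.1.0, kept alignments with a mapping quality over 15 and deposited 1 table of expected counts on 42361 RefSeq transcripts, made with HOMER without normalization. The submitters' processing notes also name CASAVA 1.8.2. Each mate adds 0.5, so not all values are whole. The strand setting of the counting is not given in the sources used here.

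Transcripts were named with RefSeq (42203) or GENCODE (65), and 93 without a name, with 0.233% to 1.37% of the tags of a library, were left out. The transcript with the highest mean was kept for each gene, since isoforms share reads, and counts were rounded. Totals had a median of 11847140, which limits precision for genes with few counts. Counts were scaled with TMM in edgeR 4.0.16 (R 4.3.3), and genes whose mean RPKM exceeded 1 in any group entered edgeR's quasi-likelihood test, in one model of 8 group means and with Benjamini-Hochberg adjustment over 11186 genes. A gene passed at an adjusted p under 0.05. Correlations used log2 CPM with a prior count of 2. The tests were tested on simulated data. No pair of libraries matched within sampling noise.

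The 10 genes, the gene lists and the tests were chosen with earlier results of these data known. The genes named are the 10, Nr4a1, the 3 tested genes most correlated with each of Egr1, Egr2, Egr3, Ier3, Srf and Myc, and, in each list, up to 3 with the largest change between genotypes and up to 3 at 1 h of LPS. The third gene for Egr1 and a gene of one list are not reported here. Alternatives were DESeq2 1.42.0, its size factors in edgeR, other filters, every transcript, a fit to the compared libraries, replicate blocks, limits on the log2 fold change, and leaving out each library. Leaving out both libraries that stand apart was chosen after seeing the data.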

Additional observations from a re-analysis of the deposited data

Results flagged for a closer look

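In 3 of the 80 groups of 4 libraries examined (10 genes in 8 groups), the highest library lay far from the others by Dixon's criterion for 4 values, and chance gives about 1 in 20. All 3 are of Nab1. At 5 h, BMDM-WT replicate 4 had 133 CPM and the others 113 to 116 CPM. At 18 h, BMDM-WT replicate 3 had 163 CPM and the others 118 to 125 CPM, and BMDM-Nur77-KO replicate 4 had 181 CPM and the others 101 to 107 CPM. The last is one of the libraries that stand apart over all genes.

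The response to LPS relative to 0 h differed between the genotypes by the interaction test of edgeR in 7 cases, each larger in the direction of higher levels in BMDM-Nur77-KO. At 5 h these were Egr3 (2.13 on the log2 scale, adjusted p = 1.2e-06), Ier3 (0.60, adjusted p = 0.032) and Srf (0.42, adjusted p = 0.035). At 18 h they were Egr1 (1.08, adjusted p = 0.0016), Egr3 (2.42, adjusted p = 9.6e-05), Ier3 (0.74, adjusted p = 0.0014) and Srf (0.53, adjusted p = 0.0019). All these interactions share the 0 h libraries, in which Ier3 and Srf were lower and Egr3 higher in BMDM-Nur77-KO.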

How the results depend on the processing

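Over 170 combinations of gene and comparison, 110 of them past the test, 2832 of 2970 refits kept their direction and side of the threshold, 80 lost it, 33 gained it and 25 changed sign, the last in 9 combinations that were not called. The number of the 10 genes that differed between the genotypes was 5 at 0 h (3 to 5 without 1 library; 2 and 0 at a log2 fold change over 0.58 and 1), 2 at 1 h (1 without a filter, 5 in a fit to the compared libraries, 1 at either limit, 1 to 2 without 1 library), 2 at 5 h (1 at either limit, 2 to 4 without 1 library) and 4 at 18 h (1 in the compared libraries, 1 over a log2 of 1). For LPS in BMDM-WT, 9 at 5 h became 5 over a log2 of 1 and 9 from 5 to 18 h became 5 at either limit, and in BMDM-Nur77-KO 10 at 5 h became 3 over 1. The interaction count was 0 at 1 h (1 with DESeq2, 4 in the compared libraries), 3 at 5 h (1 without a filter, 1 over a log2 of 1, 1 to 3 without 1 library) and 4 at 18 h (7 without both libraries that stand apart, 2 over a log2 of 1). Values that changed sign were, as log2 without 1 library, Srf at 1 h (-0.05 to 0.03), Nab1 at 5 h (-0.28 to 0.20, and -0.28 without both libraries that stand apart) and 18 h (-0.35 to 0.02), Nab2 at 5 h (-0.20 to 0.14, and 0.14) and 18 h (-0.06 to 0.09), the interaction of Egr2 at 18 h (-0.01 to 0.46) and of Nab1 at 5 h (-0.22 to 0.26, and -0.22) and 18 h (-0.28 to 0.09), and Nab1 from 5 to 18 h in BMDM-Nur77-KO (-0.26 to 0.32 without 1 library, 0.08 without both, 0.01 with every transcript and 0.02 with a replicate block within the genotype). Over all genes, a fit to the compared libraries called 2413 in place of 1417 between the genotypes at 0 h, 1723 in place of 731 at 1 h, 404 in place of 2730 at 5 h and 1609 in place of 2424 at 18 h. At 5 h, 1494 were called without BMDM-Nur77-KO replicate 1. The cause of these changes was not tested.

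Pairing of the libraries by replicate number was not seen, but the correlations below cannot exclude it. What the numbers stand for is not stated. Correlations of deviations between same-numbered libraries ranged from -0.70 to 0.47, and 2 of 32 libraries were most like their own number. With the number as a replicate block, 5, 2, 2 and 4 of the 10 genes passed between the genotypes at 0, 1, 5 and 18 h, and 0, 3 and 4 passed the interaction at 1, 5 and 18 h, as without it, and 9 rather than 10 passed from 1 to 5 h of LPS in BMDM-WT. Depth limits Egr2, Egr3 and Myc at 18 h, which rest on 16 to 158 counts per group.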
